A study of Mus musculus with 9 samples.

Results

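The data described here are the RNA levels of 32 genes for the oxidation of fatty acids in mitochondria and peroxisomes, measured in mouse lung macrophages after inhaled ozone. The genes were taken by name: the carnitine shuttle, the enzymes of beta oxidation in both organelles, the electron transfer flavoprotein and its dehydrogenase, and 2 acyl-CoA thioesterases. All 32 were present among the 54281 genes of the deposited table, and all 32 had enough reads to be among the 15713 genes tested. The mice were wild-type females of 12 weeks, with no further allele or agent named, and inhaled either 0.8 ppm ozone or air for 3 h in a whole-body chamber. The groups were ozone mice killed 24 h after exposure (24 h), ozone mice killed 72 h after exposure (72 h), and air controls, with 3 mice and 1 RNA library per mouse in each. The time at which the controls were killed was not given in the sources used here. The cells came from lavage combined with massage of the lung and were treated to lyse red cells, so each library is a bulk sample of whatever cells the lavage held.

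Beta oxidation shortens an activated fatty acid, an acyl-CoA, from one end in repeated rounds of dehydrogenation, hydration, a further dehydrogenation and thiolytic cleavage. Long chains enter mitochondria as carnitine esters, and the electrons of the initial dehydrogenation reach ubiquinone through the electron transfer flavoprotein. Peroxisomes run a parallel set of reactions on very long, branched and other unusual chains. Alveolar macrophages live on the surfactant lipid of the airspaces, which they take up and break down, and are known for depending on the lipid-handling receptor PPARgamma.

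The results turn on a few of these genes, and the sequence upstream of their starts is shown so that their positions and the short motifs in them can be read. They come from RefSeq on GRCm38.p6 and are written 5′ to 3′ on the strand of the gene; no annotated exon lies within any of them. The opening 3 are the 250 bases before the transcript starts of Acadm (chr3:153944644-153944893, minus strand), Acadvl (chr11:70015429-70015678, minus strand) and Acaa1b (chr9:119157094-119157343, minus strand), with the nuclear receptor motif AGGTCA, or its reverse complement, in capitals. The last is the whole of the 85 bases between Hadha and Hadhb as bounded in the GENCODE M21 annotation (chr5:30155163-30155247, plus strand), with the GC box GGGCGG in capitals. These genes code for both subunits of 1 enzyme and are transcribed away from each other.
Acadm: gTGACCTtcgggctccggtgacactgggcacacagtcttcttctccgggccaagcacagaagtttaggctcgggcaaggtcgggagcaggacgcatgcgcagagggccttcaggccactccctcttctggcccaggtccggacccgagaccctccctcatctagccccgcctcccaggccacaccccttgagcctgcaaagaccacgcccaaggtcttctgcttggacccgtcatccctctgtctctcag
Acadvl: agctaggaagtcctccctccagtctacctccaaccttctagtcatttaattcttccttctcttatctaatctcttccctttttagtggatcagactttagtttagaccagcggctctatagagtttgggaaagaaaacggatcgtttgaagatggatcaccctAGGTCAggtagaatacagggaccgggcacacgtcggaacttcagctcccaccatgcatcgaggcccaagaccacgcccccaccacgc
Acaa1b: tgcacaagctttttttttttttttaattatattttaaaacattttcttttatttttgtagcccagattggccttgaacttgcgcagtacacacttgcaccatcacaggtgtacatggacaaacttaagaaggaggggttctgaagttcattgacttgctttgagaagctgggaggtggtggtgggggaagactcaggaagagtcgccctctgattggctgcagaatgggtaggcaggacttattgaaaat
Hadha to Hadhb gap: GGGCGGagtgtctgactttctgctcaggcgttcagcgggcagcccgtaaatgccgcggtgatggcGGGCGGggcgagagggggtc
The motif begins at base 2 of the Acadm stretch, as its reverse complement, and at base 164 of the Acadvl stretch; the Acaa1b stretch holds none. In the gap the GC boxes begin at bases 1 and 66.

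Of the 32 genes, 27 had a RefSeq promoter window, which runs from 250 bases before to 50 after the start; Decr1, Acaa2, Hsd17b4, Crat and Amacr had no entry. A direct repeat of AGGTCA, with any 1 base between the copies (called DR1), was in the windows of 0 of the 27 genes and in 0.0396% of all 32851 windows of that length, and TCAAGGTCA was in 0 and in 0.423%. The lone motif AGGTCA, which both longer ones contain, was in the windows of Cpt1a, Acadm, Acadvl and Scp2, that is 14.8% of the 27, against 16.3% of all windows. GGGCGG was in the windows of 21 genes (77.8% of the 27), against 35.7% of all windows, and TATAAA in those of 0, against 13.6%. The set is counted by gene and the whole by window, so the shares are not of quite the same unit. The windows of Hadha and Hadhb, both among the 21, overlap. These counts cover both strands; the last 3 motifs were added after the earlier 2 had been searched. The windows of the set were rich in G and C, with a median of 59.5% over 28 windows (Abcd3 has 2), against 52.7% over all.

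Estimated counts per library summed to between 47095543 and 60248305, and the lowest count of any of the 32 genes in any library was 116, for Amacr. All 15 markers of resident alveolar macrophages were detected in every library, with a summed level of 23684 to 33126 counts per 1000000 (CPM) at 24 h, 27651 to 32781 CPM at 72 h and 34875 to 37551 CPM in air. Ozone replicate 2 at 24 h and ozone replicate 1 at 72 h stood apart. Their summed levels of 10 B cell markers were 1609 and 1017 CPM, with 158 to 199.96 CPM for the remaining 7. Most of that sum in the remaining 7 was Cd22, at 155 to 196 CPM, and Cd22 stood at 180 and 216 CPM in the 2. Ighm was at 737 and 358 CPM in the 2 and at 1.00 to 4.30 CPM in the remaining 7. The 7 markers of serous cavity macrophages summed to 610.4 and 828 CPM in the 2, with 2.72 to 4.71 CPM for the remaining 7. The summed levels of the 2 were 729 and 76.2 CPM for T cell markers (4.09 to 14.1 CPM for the remaining 7), 2896 and 2505 CPM for red cell markers (12.2 to 855 CPM), 226 and 154 CPM for monocyte markers (18.9 to 40.3 CPM) and 169 and 141 CPM for neutrophil markers (56.4 to 77.8 CPM). In the remaining 7, Ccr2 made up most of the monocyte sum, at 15.4 to 34.5 CPM, against 56.5 and 54.9 CPM in the 2. Csf3r made up most of the neutrophil sum there, at 38.5 to 56.2 CPM, against 52.8 and 58.5 CPM in the 2. Of the counts of the 2 libraries, 5.25% and 6.18% fell on mitochondrially encoded genes, against 2.71% to 3.07% for the remaining 7. Markers of lung epithelium summed to 238 to 326 CPM at 24 h, 246 to 305 CPM at 72 h and 237 to 274 CPM in air, most of it Epcam and Cdh1. The other 13 summed to 48.6 to 56.3 CPM at 24 h, 71.8 to 92.1 CPM at 72 h and 39.3 to 47.01 CPM in air. Of the 15, 9 were higher in every 72 h library than in any air library, among them Cldn18, at 7.75 to 14.4 CPM at 72 h and 0.571 to 0.981 CPM in air, and Krt8, at 5.57 to 8.03 CPM at 72 h and 0.531 to 0.761 CPM in air; of all tested genes 17.4% were. Of the 10 B cell markers, 9 were higher in every 24 h library than in any air library, and 2 were so at 72 h. For red cell markers this held for 5 of 7 at 24 h and 0 at 72 h. For neutrophil markers it held for 3 of 8 at each time. For T cells it was 0 and 3 of 10, for monocytes 0 and 2 of 6, and for serous cavity macrophages 2 and 1 of 7. Of all tested genes 10.2% were higher in this way at 24 h and 17.4% at 72 h. Red cell markers summed to 143 to 2896 CPM at 24 h and 23.8 to 83.5 CPM in air. In 24 h replicates 1 and 3 the 9 B cell markers were low. The highest of them there, Ighm, was at 4.30 and 1.77 CPM, against 1.00 to 1.56 CPM in air. No marker of these 8 lists was at 0 in every library. Air replicate 2 is labelled female but had 2.42 CPM of Xist, where the remaining 8 had 883 to 1482 CPM. The numbers of genes called are therefore also given below without the 2 libraries, and without them and that air library.

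At 72 h the 32 genes as a set lay slightly below air, and 8 of them passed the test. Acadm and Acadvl among the acyl-CoA dehydrogenases, Hadh and Hadhb among the enzymes of the later steps, the auxiliary isomerase Eci1, the electron carrier Etfb, the peroxisomal thiolase Acaa1b and the thioesterase Acot2 fell, by 19.9% to 26.2% except Acaa1b, which fell by 47.4%. None rose. The calls took in 8 of the 32 genes, while 3.77% of all tested genes were called lower and 1.71% higher (edgeR's quasi-likelihood test, Benjamini-Hochberg adjusted p under 0.05). The log2 fold change lay below 0 for 30 of the 32 genes, against 51.0% of all tested genes, with a median of -0.22 in the set and -0.01 over all genes. Among the 11161 tested genes that averaged 2 to 600 CPM, a range that holds all 32, the median was -0.06, 60.1% lay below 0, and 5.22% were called lower and 1.11% higher. Cpt1a and Crat, at 0.03 and 0.05, were the exceptions. In 20 genes every 72 h library lay below every air library (62.5%, against 22.2% of all tested genes), and 19 had an unadjusted p under 0.05 (59.4%, against 25.3%). In a bulk sample fewer cells of a type and less RNA per cell cannot be told apart. The summed level of the resident macrophage markers was lower in every 72 h library than in any air library. Most of that sum is Chil3, at 17847 to 21104 CPM at 72 h and 22237 to 24827 CPM in air, and the other 14 summed to 9805 to 12095 CPM at 72 h and 12104 to 12724 CPM in air. Of the 15 markers, 7 were lower in every 72 h library than in any air library, and Car4 and Ctsk were higher in every one. The part of these markers and of the epithelial ones in the results was not tested.

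**Figure D1:**
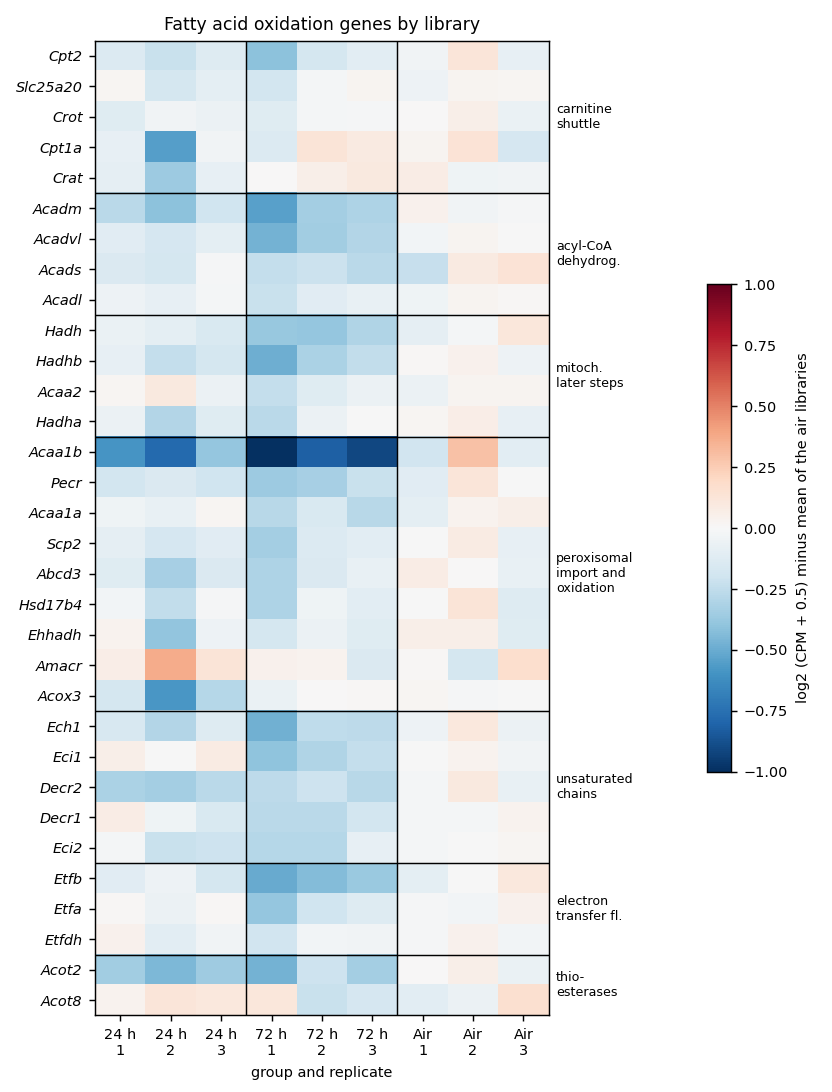
Level of each of the 32 genes (rows, grouped by role) in each of the 9 libraries (columns), as log2 of CPM plus 0.5 minus the mean of the 3 air libraries; blue is below and red above the air mean. The 72 h columns are mostly blue, with medians over the genes of -0.28, -0.19 and -0.14, the 24 h columns have medians of -0.08, -0.18 and -0.11, and the air columns scatter about 0.

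Without the 2 libraries that stood apart, 6 genes were called lower at 72 h (Acadm, Acadvl, Hadhb, Hadh, Acaa1b and Etfb) and the median was -0.15, with 27 of 32 below 0; of all tested genes 2.70% were then called lower and 4.46% higher. The log2 fold change of 10 genes, none of them called, was smaller by more than 1.5 times without these libraries. These were Cpt2, Acadl, Hadha, Acaa2, Etfa, Etfdh, Hsd17b4, Ehhadh, Abcd3 and Scp2. In 4 genes, Cpt1a, Crat, Acot8 and Amacr, it was larger by more than 1.5 times. Acox3, Slc25a20 and Crot, all near 0, changed sign. Without the air library lacking Xist as well, 4 were called lower (Acadm, Acadvl, Acaa1b and Etfb) and the median was -0.18, with 0.827% of all tested genes called lower and 1.91% higher. The count was 0 when any 1 of the 72 h libraries, air replicate 2 or air replicate 3 was left out, and then 0.197% to 0.375% of all tested genes were called in either direction, against 5.47% with all libraries. It was 5 without air replicate 1, and 4, 9 and 6 without 24 h replicate 1, 2 and 3. Acadvl, Hadh, Acaa1b and Etfb were called in 4 of these 9 fits, Acadm and Eci1 in 2, and Hadhb and Acot2 in 1. The balance of calls over all genes also depended on the scaling. With DESeq2's size factors 1.79% were called lower and 1.43% higher, and with upper quartile scaling 0.681% lower and 1.22% higher. In the set, 6 were called lower and 29 lay below 0 with DESeq2's size factors, and 4 were called lower and 27 lay below 0 with upper quartile scaling.

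At 24 h no gene of the set passed edgeR's test, where 0.00636% of all tested genes were called lower and 0.00% higher. Unadjusted, 7 lay at p under 0.05 (Acadm, Acox3, Ech1, Decr2, Acaa1b, Acot2 and Abcd3, 21.9% of the set, against 14.7% of all tested genes). DESeq2 called 5 lower (Acadm, Acox3, Decr2, Acaa1b and Acot2), where it called 1.13% of its tested genes lower and 2.62% higher, and limma voom called 0. The log2 fold change lay below 0 in 28 of the 32 genes, against 47.5% of all tested genes, with a median of -0.12 in the set and 0.01 over all genes. In 14 genes the groups did not overlap, all lower at 24 h (43.8%, against 9.15% of all tested genes). Of the 15 resident macrophage markers, 9 were also lower in every 24 h library than in any air library, and Car4 was higher in every one. The part of these markers in the 24 h values was not tested. Without the 2 libraries that stood apart edgeR called 0 genes of the set, 27 lay below 0 and the median was -0.09; without the air library lacking Xist as well it called 0, 24 lay below 0 and the median was -0.06. When only the 2 libraries were left out, the 24 h log2 fold change of 8 genes was smaller by more than 1.5 times. In 0 genes it was larger by that much, and Acaa2, Etfa and Etfdh changed sign. The 24 h and 72 h comparisons share the air libraries.

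The difference between the ozone groups was tested directly. At 72 h, 4 genes were lower than at 24 h (Acadvl, Hadh, Eci1 and Etfb) and none was higher. That is 12.5% of the set, near the 12.8% of all tested genes called lower, while 5.39% were called higher. The log2 fold change lay below 0 in 22 genes (68.8%, against 53.1% of all tested genes), with a median of -0.10 in the set and -0.03 over all genes. Among the tested genes that averaged 2 to 600 CPM the median was -0.06 and 59.7% lay below 0. Of these, 17.4% were called lower, more than the 12.5% of the set, and 5.09% higher. Every 72 h library lay below every 24 h library in 12 genes (37.5%, against 22.6% of all tested genes), and above in Acox3 and Crat (6.25%, against 15.0%). With upper quartile scaling 8.29% of all genes were lower and 7.402% higher, and in the set Eci1 and Etfb were lower and Acox3 and Crat higher. Without the 2 libraries that stood apart Eci1 was lower and Acox3 higher, with 8.68% of all tested genes lower and 6.63% higher; without the air library lacking Xist as well Eci1 and Acaa1b were lower, with 7.16% of all tested genes lower. The count of lower genes was 1 without 24 h replicate 1 or 72 h replicate 2 (6.26% and 3.25% of all tested genes), and 2 without 72 h replicate 1 (8.44%). A joint test for any difference among the 3 groups called 9 genes, the 8 lower at 72 h and Decr2 (28.1%, against 13.2% of all tested genes). That count was 0 without 72 h replicate 2 (0.191% of all tested genes), 2 without 24 h replicate 1, 72 h replicate 1 or 72 h replicate 3 (3.58%, 2.49% and 2.06%), and 4 without air replicate 2 (5.43%). It was 7 without the 2 libraries that stood apart (11.1%) and 2 without them and the air library lacking Xist (5.61%).

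**Figure D2:**
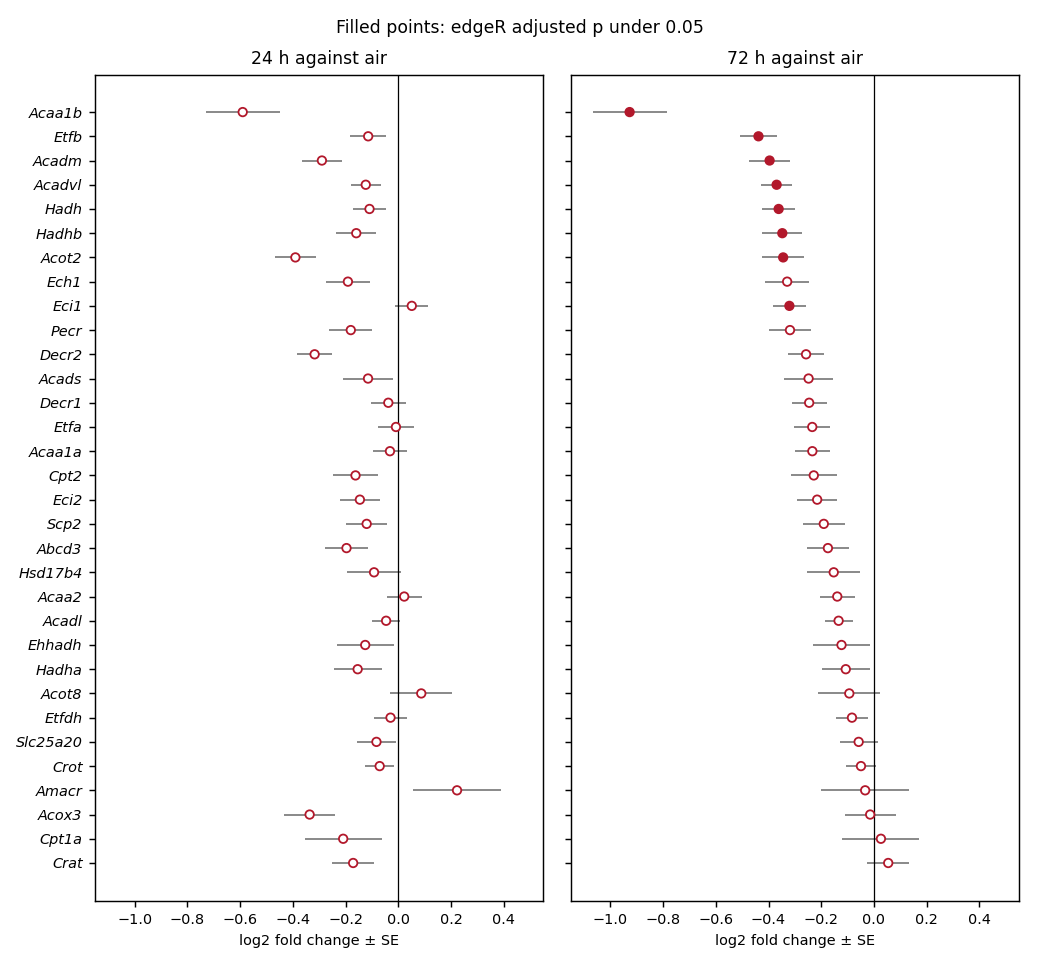
Log2 fold change with its standard error for each of the 32 genes, at 24 h (left) and 72 h (right) against air, 3 libraries per group, ordered by the 72 h value. Filled points passed the adjusted test: none at 24 h and 8 at 72 h, with Acaa1b lowest in both panels.

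Among the 5 genes of the carnitine shuttle none passed in any comparison, and their medians were -0.16 at 24 h and -0.05 at 72 h. Cpt1a, the malonyl-CoA-sensitive enzyme that links long chains to carnitine at the outer mitochondrial membrane, had 517, 374 and 535 CPM at 24 h, 498, 598 and 584 CPM at 72 h, and 558, 604 and 489 CPM in air. The groups overlapped, and the lowest value belonged to the 24 h library that carried B cell markers. Crat, which moves short chains between carnitine and coenzyme A, had 89.8, 74.1 and 90.01 CPM at 24 h, 95.8, 99.1 and 102 CPM at 72 h, and 101, 92.7 and 93.1 CPM in air. Every 24 h library lay below every library of the other groups, by -0.17 ± 0.08 on the log2 scale against air (SE, adjusted p = 0.348), and 72 h lay 0.23 ± 0.08 above 24 h (adjusted p = 0.0832). The difference of 24 h from air was -0.085 without the 2 libraries that stood apart. Cpt2, which frees the acyl group inside mitochondria, was at -0.23 at 72 h (adjusted p = 0.147), and at -0.12 without those libraries. Slc25a20, the carrier of the inner membrane, and Crot, the peroxisomal carnitine transferase, were at -0.06 and -0.05 at 72 h, with overlapping groups.

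The 4 acyl-CoA dehydrogenases, which differ in the chain length they accept, had a median of -0.12 at 24 h and -0.31 at 72 h, where 2 were called. Acadvl, for very long chains, had 105, 101 and 106 CPM at 24 h, 81.6, 89.3 and 92.9 CPM at 72 h, and 112, 116 and 114 CPM in air. The 3 groups did not overlap anywhere, in the order 72 h, 24 h, air. The log2 fold change at 72 h was -0.37 ± 0.06 against air (SE, adjusted p = 0.0236) and -0.25 ± 0.06 against 24 h (adjusted p = 0.0228). Acadm, for medium chains, had 92.0, 83.8 and 96.8 CPM at 24 h, 76.3, 87.6 and 89.5 CPM at 72 h, and 115, 108 and 111 CPM in air. Both ozone groups lay below air and overlapped each other; at 72 h the difference from air was -0.40 ± 0.08 (SE, adjusted p = 0.0315), and at 24 h -0.29 ± 0.08 (adjusted p = 0.176). The counts of Acadvl bear a limit, since 42.9% of its exon bases overlap Dvl2 on the opposite strand. Dvl2 stood at 17.5% of the level of Acadvl and was at -0.16 at 72 h (adjusted p = 0.373). Acads, for short chains, and Acadl, for long chains, were at -0.25 and -0.13 at 72 h and were not called; Acads overlapped air and Acadl did not.

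**Figure D3:**
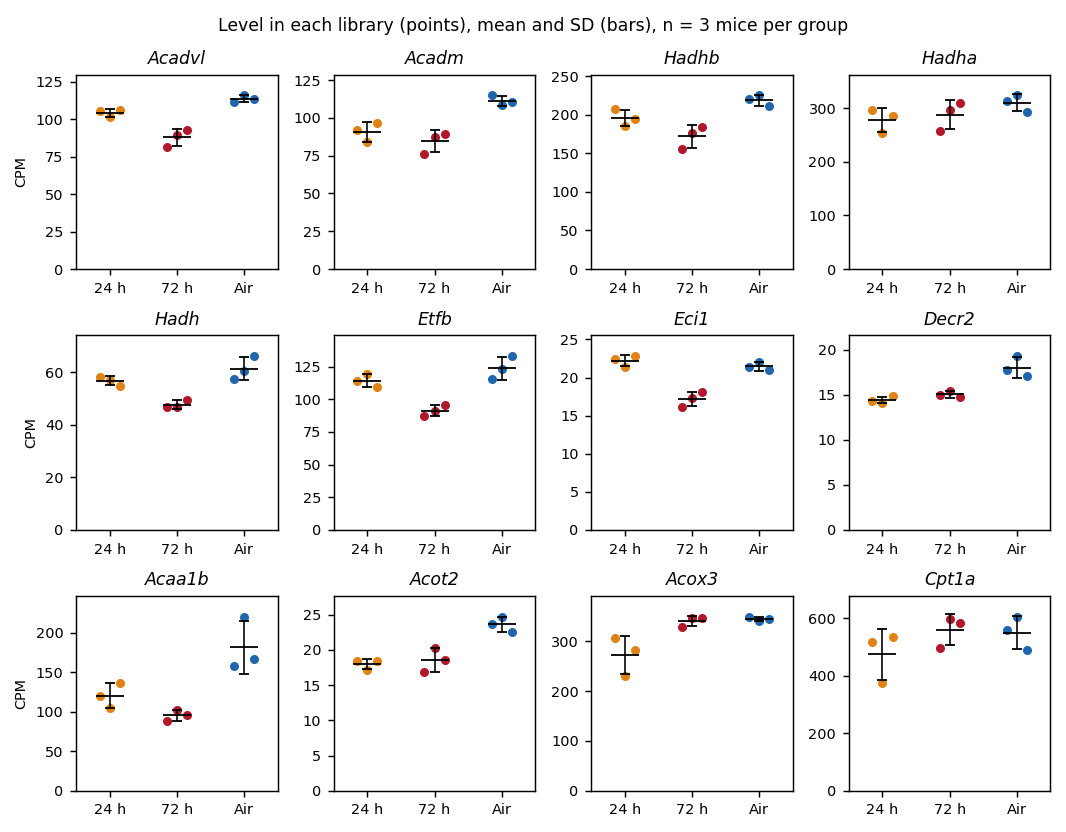
CPM of 12 genes in each library (points, n = 3 mice per group) with the group mean and SD (bars), on axes that start at 0. For Eci1, Hadh and Etfb the 72 h points lie below all others, for Acot2 and Decr2 both ozone groups lie below air, for Acox3 the 24 h points lie below all others, and the groups of Hadha and Cpt1a overlap.

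In the later mitochondrial steps the trifunctional protein hydrates, oxidizes and cleaves long chains. Of its 2 subunits only Hadhb was called at 72 h, and at 24 h Hadha and Hadhb were at -0.15 and -0.16 against air. Hadha, the alpha subunit with the hydratase and the hydroxyacyl dehydrogenase, had 297, 254 and 285 CPM at 24 h, 257, 297 and 310.2 CPM at 72 h, and 315, 324 and 293 CPM in air. These groups overlapped, and the difference at 72 h was -0.11 ± 0.09 (SE, adjusted p = 0.482), or -0.01 without the 2 libraries that stood apart. Hadhb, the beta subunit with the thiolase, had 207, 186 and 194 CPM at 24 h, 155, 176 and 184 CPM at 72 h, and 220.0, 225 and 211 CPM in air. The 3 groups did not overlap, and the difference at 72 h was -0.35 ± 0.08 (SE, adjusted p = 0.0388). Within each library the log2 ratio of Hadhb to Hadha, in CPM not divided by length, was -0.52, -0.45 and -0.55 at 24 h, -0.73, -0.76 and -0.75 at 72 h, and -0.52, -0.53 and -0.47 in air. The 3 values at 72 h stood together, below all 6 others, the mean being -0.75 ± 0.02 at 72 h, -0.51 ± 0.05 at 24 h and -0.50 ± 0.03 in air (SD, n = 3 each). This ratio was chosen after the values were seen and was not tested. The pseudogenes Gm13910 and Gm9108, up to 99.8% identical to Hadhb over the aligned bases, stood at no more than 0.0382% of its level.

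Hadh, the hydroxyacyl dehydrogenase of shorter chains, had 58.2, 57.0 and 54.8 CPM at 24 h, 46.8, 46.6 and 49.5 CPM at 72 h, and 57.4, 60.3 and 66.0 CPM in air. All 72 h libraries lay below the other 6, while 24 h and air overlapped. Its log2 fold change at 72 h was -0.36 ± 0.06 against air (SE, adjusted p = 0.0248) and -0.25 ± 0.06 against 24 h (adjusted p = 0.0261). Acaa2, the mitochondrial thiolase of medium chains, was at -0.14 at 72 h, and its groups overlapped.

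The 9 genes for import into and oxidation within peroxisomes had medians of -0.13 at 24 h and -0.17 at 72 h, and 1 was called at 72 h. That gene, the thiolase Acaa1b, had 119, 105 and 137 CPM at 24 h, 88.6, 102 and 95.4 CPM at 72 h, and 157, 219.5 and 167 CPM in air. Its 3 groups did not overlap, with 72 h lowest, and the single highest value was that of air replicate 2. The log2 fold change was -0.93 ± 0.14 at 72 h (SE, adjusted p = 0.0234) and -0.59 ± 0.14 at 24 h (adjusted p = 0.144); without the 2 libraries that stood apart and air replicate 2 it was -0.72 at 72 h (adjusted p = 0.00844). Acaa1a, the other peroxisomal thiolase of this type in the mouse, was at -0.23 at 72 h (adjusted p = 0.0720). The aligned parts of the 2 transcripts are 96.6% identical over 1428 bases, so reads may have been shared between them. Summed over both genes, the level was 298 ± 22.3 CPM at 24 h, 250.1 ± 14.1 CPM at 72 h and 363 ± 39.6 CPM in air (SD, n = 3 each). The log2 ratio of Acaa1b to Acaa1a was -0.57 ± 0.14 at 24 h, -0.70 ± 0.05 at 72 h and -0.02 ± 0.23 in air (SD, n = 3 each), a comparison likewise chosen after the values were seen and not tested.

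**Figure D4:**
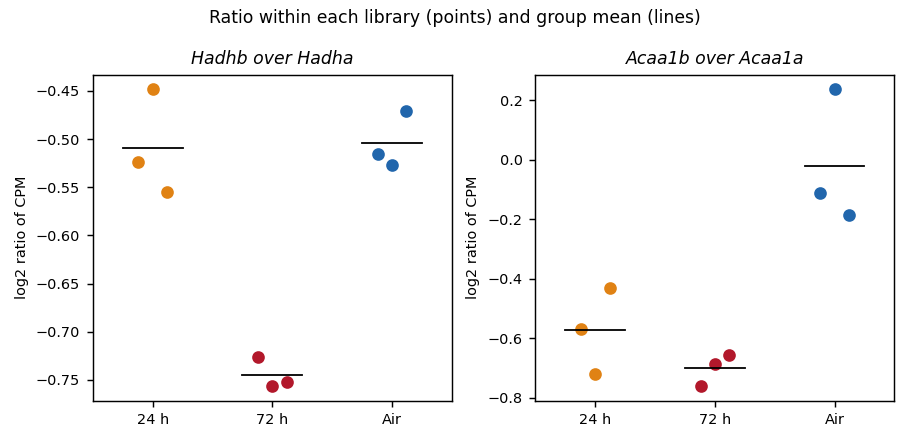
Log2 ratio of CPM within each library (points; lines are means of 3 mice per group) for Hadhb over Hadha and for Acaa1b over Acaa1a. The 72 h values of Hadhb over Hadha, from -0.73 to -0.76, lie below all others, and the values of Acaa1b over Acaa1a in both ozone groups lie below all air values.

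Acox3, the oxidase of branched chains, followed another course. It had 306, 230.1 and 282 CPM at 24 h, 329.6, 347 and 348 CPM at 72 h, and 349, 342 and 344 CPM in air. Every 24 h library lay below the other 6, and 72 h overlapped air. At 24 h it was at -0.34 ± 0.10 against air (SE, adjusted p = 0.200), and 72 h lay 0.32 ± 0.10 above 24 h (adjusted p = 0.0509). Without the 2 libraries that stood apart the difference of 72 h from 24 h was 0.26 ± 0.07 (SE, adjusted p = 0.0342). With all 9 libraries in the fit, Acox3 passed in no comparison, and of the 9 genes of this role only Acaa1b did. At 72 h the transporter Abcd3 was at -0.17, the bifunctional enzymes Ehhadh and Hsd17b4 at -0.12 and -0.15, the thiolase and sterol carrier Scp2 at -0.19, the racemase Amacr at -0.03 and the enoyl reductase Pecr at -0.32 (adjusted p = 0.0562). Abcd3 was at -0.09, Ehhadh at -0.07, Hsd17b4 at -0.06 and Scp2 at -0.10 without the 2 libraries that stood apart. Pecr, Abcd3 and Scp2 were lower than air in every ozone library of both times. The pseudogene Scp2-ps2 matches 99.6% of the bases over 51.9% of the Scp2 transcript and stood at 13.0% of its level. At 72 h Scp2-ps2 was itself called lower than air, at -0.48 ± 0.11 (SE, adjusted p = 0.0471). Whether reads were shared between Scp2 and Scp2-ps2 was not tested.

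All 5 auxiliary enzymes, which bring the double bonds of unsaturated chains into a position that beta oxidation can use, lay below air at 72 h, with a median of -0.26. Eci1, a mitochondrial enoyl isomerase, had 22.4, 21.4 and 22.8 CPM at 24 h, 16.2, 17.3 and 18.1 CPM at 72 h, and 21.4, 22.03 and 20.9 CPM in air. The 72 h libraries lay below all others, and 24 h overlapped air. It was at -0.32 ± 0.06 against air (SE, adjusted p = 0.0315) and at -0.37 ± 0.06 against 24 h (adjusted p = 0.00859), and the call against 24 h held when each of the 9 libraries was left out in turn. Decr2, the peroxisomal dienoyl-CoA reductase, had 14.3, 14.1 and 14.9 CPM at 24 h, 14.9, 15.5 and 14.8 CPM at 72 h, and 17.7, 19.3 and 17.0 CPM in air. Both ozone groups lay below air and overlapped each other; Decr2 passed the joint test alone (adjusted p = 0.0311), with differences from air of -0.32 ± 0.07 at 24 h and -0.26 ± 0.07 at 72 h (SE, adjusted p = 0.120 and 0.0604). Ech1, the dienoyl isomerase, had 209.8, 191 and 214 CPM at 24 h, 167, 196 and 195 CPM at 72 h, and 226, 252 and 225 CPM in air. Both ozone groups lay below air, by -0.33 ± 0.08 at 72 h (SE, adjusted p = 0.0560). Decr1, the mitochondrial reductase, and Eci2, a further isomerase, were at -0.25 and -0.22 at 72 h and were not called.

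Etfb and Etfa code for the subunits of the electron transfer flavoprotein, and Etfdh for the dehydrogenase that hands its electrons to ubiquinone. Etfb had 114, 119 and 109 CPM at 24 h, 87.1, 91.3 and 95.6 CPM at 72 h, and 115, 123 and 133 CPM in air. All 72 h libraries lay below the other 6, and 24 h overlapped air. Its log2 fold change at 72 h was -0.44 ± 0.07 against air (SE, adjusted p = 0.0236) and -0.32 ± 0.07 against 24 h (adjusted p = 0.0164). Etfa had 121, 115 and 121 CPM at 24 h, 92.1, 105 and 109.8 CPM at 72 h, and 119, 118 and 124 CPM in air. The 72 h libraries were again below the other 6, but the difference from air, -0.23 ± 0.07 (SE), was not called (adjusted p = 0.0819) and was -0.14 without the 2 libraries that stood apart. Etfdh was at -0.08 at 72 h. Of the exon bases of Etfb, 53.0% are shared with Gm45233 on the same strand, which stood at 0.0524% of its level.

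Of the thioesterases, which free fatty acids from coenzyme A, the mitochondrial Acot2 had 18.4, 17.2 and 18.4 CPM at 24 h, 16.9, 20.3 and 18.5 CPM at 72 h, and 23.6, 24.6 and 22.5 CPM in air. Both ozone groups lay below air and overlapped each other. The differences from air were -0.39 ± 0.08 at 24 h (SE, adjusted p = 0.117) and -0.34 ± 0.08 at 72 h (adjusted p = 0.0435). Its transcript is 93.8% identical over the aligned bases to that of the cytosolic Acot1, which stood at 204% of its level and was at -0.55 ± 0.15 at 72 h (SE, adjusted p = 0.0663). The peroxisomal Acot8 was at -0.09 at 72 h, and its groups overlapped.

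The 8 genes called at 72 h lie on chr3:153922357-153944632 (Acadm, ENSMUSG00000062908.12), chr11:70010183-70015411 (Acadvl, ENSMUSG00000018574.14), chr5:30155248-30184593 (Hadhb, ENSMUSG00000059447.13), chr3:131233419-131272101 (Hadh, ENSMUSG00000027984.8), chr17:24426641-24439348 (Eci1, ENSMUSG00000024132.6), chr9:119148023-119157093 (Acaa1b, ENSMUSG00000010651.4), chr7:43444083-43457800 (Etfb, ENSMUSG00000004610.4) and chr12:83987861-83993873 (Acot2, ENSMUSG00000021226.7), in GRCm38. The 32 genes are spread over 15 chromosomes.

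Per kilobase of exon, the levels covered a wide range. Averaged over all 9 libraries, Etfb (94.3 CPM per kb), Hsd17b4 (92.7), Ech1 (91.3) and Scp2 (81.4) were highest, followed by Cpt1a (69.1), and Acot8 (4.97) and Amacr (1.08) were lowest. Within the 72 h group alone Hsd17b4 (88.1 CPM per kb) and Ech1 (81.6) stood above Etfb (78.5). The 8 genes called lower at 72 h stood between rank 1 and rank 23 of the 32 in the order over all libraries, from Etfb to Acot2 at 9.13 CPM per kb, and none was among the 9 lowest. The spread between mice of a group was small: the pooled coefficient of variation had a median of 6.32% over the 32 genes, against 8.01% over the 10650 tested genes in the same range of CPM, and 24 of the 32 lay below 8.01%. Acadl varied least (3.63%) and Acaa1b most (13.8%).

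**Figure D5:**
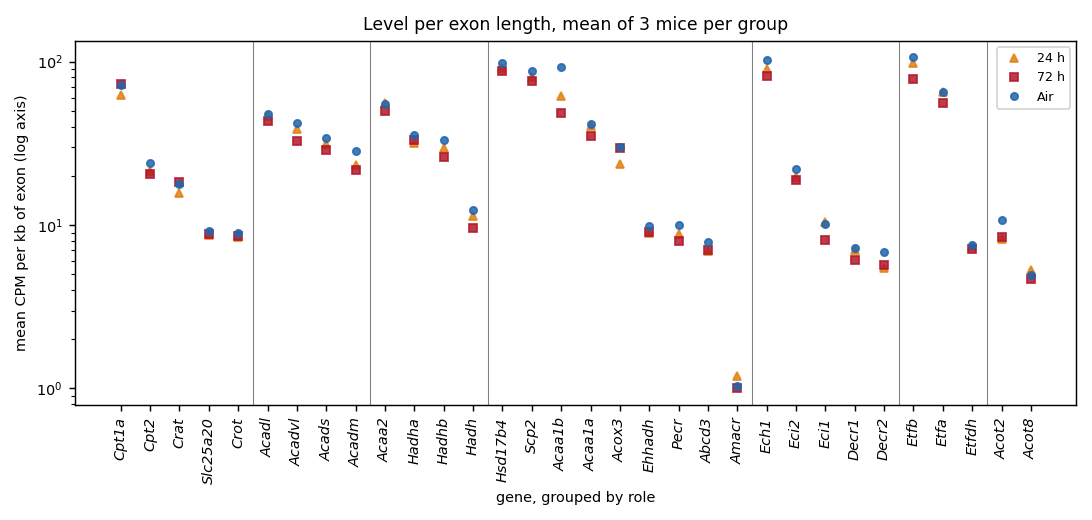
Mean CPM per kb of exon (log axis) of each of the 32 genes in the 24 h, 72 h and air groups (3 mice each), grouped by role in the order carnitine shuttle, acyl-CoA dehydrogenases, later mitochondrial steps, peroxisomal genes, auxiliary enzymes, electron transfer flavoprotein, thioesterases. Etfb, Hsd17b4 and Ech1 stand highest and Amacr lowest, and the groups differ little on this scale except for Acaa1b.

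The sum of the 32 levels was 3781, 3325 and 3756 CPM at 24 h, 3290.1, 3701 and 3726 CPM at 72 h, and 4012, 4262 and 3937 CPM in air. Every ozone library lay below every air library, and the lowest value in each ozone group was that of the library with B cell and serous cavity markers. Cpt1a alone contributed 475 ± 88.4 CPM at 24 h, 559.9 ± 54.2 CPM at 72 h and 550.1 ± 58.0 CPM in air (SD, n = 3 each).

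Of 54 further genes of the pathway, 47 had enough reads to be tested. None was called at 24 h, where Abcd2, a peroxisomal transporter and among the most abundant of them, was at -0.29 (adjusted p = 0.348). At 72 h 1 was lower and 0 higher than air (2.13%, against the 3.77% of all tested genes called lower): Acat1, the mitochondrial acetoacetyl-CoA thiolase, averaged 84.7 ± 4.30 CPM at 72 h and 109 ± 4.54 CPM in air (SD, n = 3 each; log2 fold change -0.36, adjusted p = 0.0234). Against 24 h, 8 were lower at 72 h and 0 higher (17.0%, against 12.8% of all tested genes called lower). Of the tested genes that averaged 2 to 600 CPM, 17.4% were called lower. The 8 were Acsl5, Echs1, Hsd17b10, Acat1, Acat2, Acot7, Acot13 and Nudt19. The 4 with the smallest p were Acat1 (-0.38), Nudt19, a peroxisomal coenzyme A hydrolase (-0.41), Hsd17b10, a mitochondrial dehydrogenase (-0.29), and Acat2, the cytosolic thiolase that feeds sterol synthesis (-0.82).

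Of 31 regulators and PPAR targets, 28 were tested. The receptor Ppara and the coactivator Ppargc1a, known as drivers of this pathway in liver, and the hormone gene Fgf21 had too few reads for a test. None of the 28 was called at 24 h, with Lpl, the lipoprotein lipase, at -0.33 and Ucp2, a carrier of the inner mitochondrial membrane, at 0.01. At 72 h Prkag1, a subunit of the AMP-activated kinase, was the only one called against air, at -0.20 ± 0.04 (SE, adjusted p = 0.0424). That is 3.57% of the 28, near the 3.77% of all tested genes called lower. Against 24 h Prkag1 (-0.23) and Tfam, the mitochondrial transcription factor (-0.25), were lower at 72 h. That is 7.14% of the 28, below the 12.8% of all tested genes called lower. Pparg itself, the alveolar macrophage PPAR, averaged 184 ± 16.3 CPM at 24 h, 170.0 ± 15.6 CPM at 72 h and 218 ± 7.87 CPM in air (SD, n = 3 each), and the difference at 72 h, -0.36 ± 0.09 (SE), was not called (adjusted p = 0.0508); it was singled out after its values were seen.

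All 19 genes of peroxisome assembly were tested, and 2 were lower at 72 h than in air (10.5%, against 3.77% of all tested genes). Pex14, of the docking complex for imported proteins, was at -0.31 ± 0.06 (SE, adjusted p = 0.0346), and Pex19, the carrier of membrane proteins, at -0.21 ± 0.04 (adjusted p = 0.0368). None was called at 24 h or between the ozone groups, where the most abundant, Pxmp4 and Pex2, were at -0.25 and 0.00 at 24 h against air, and at 0.00 and -0.18 at 72 h against 24 h.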

How the data were processed

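Total RNA was read with a stranded kit in 9 libraries, 3 per group. The deposited table holds estimated counts per gene as the authors made them; 80.5% of the values are whole to within 1e-06. Trimmomatic 0.39, FastQC, Salmon, DESeq2 and GRCm38.p6 are named in the submitters' processing notes, with no role or order; whether counting used strand was not given in the sources used here. Gene names came from GENCODE M21, which matched 54107 of 54281 IDs.

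Counts were rounded to whole numbers. Genes passing filterByExpr were fitted in 1 model of all 9 libraries with TMM scaling (edgeR 4.0.16, R 4.3.3, robust quasi-likelihood F test), and p-values were adjusted by Benjamini-Hochberg over 15713 genes, with a threshold of 0.05. CPM are counts per 1000000 of the TMM-scaled library total, computed here; CPM per kb divides them by the summed exon length. The fit was tested on simulated data. Alternatives used DESeq2 1.42.0, limma 3.58.1, other scalings and filters, and left-out libraries.

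Genes with full values are those called in any test and, in each role, the most abundant and the one with the smallest joint p; from other lists, up to 4 called genes per comparison or, with none, the 2 most abundant. Values of some genes of the other lists are not reported here. The members, lists and tests were chosen with earlier results of these data known. Motifs in 250 bases before to 50 after the start came from RefSeq promoters. No 2 libraries of a group agreed within sampling noise (chi-square per degree of freedom 7.25 to 135).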

Additional observations from a re-analysis of the deposited data

Results flagged for a closer look

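For 4 genes the difference from air at 72 h and at 24 h was itself different, by edgeR's quasi-likelihood test of 72 h against 24 h (Benjamini-Hochberg adjusted over all tested genes). They are 12.5% of the 32. In the same test 12.8% of all tested genes were called lower, and 17.4% of those that averaged 2 to 600 CPM. The log2 difference of 72 h minus 24 h was -0.25 for Acadvl, -0.25 for Hadh, -0.37 for Eci1 and -0.32 for Etfb, and in each gene all 3 libraries of 72 h lay below all 3 of 24 h. Without the 2 libraries that carry B cell and serous cavity markers the adjusted p was 0.0549 for Acadvl, 0.1002 for Hadh, 0.0235 for Eci1 and 0.0650 for Etfb. The part of those libraries' other cells in these differences was not tested.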

How the results depend on the processing

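No direction of a median or of a called gene was reversed in the 20 alternatives. At 24 h the number of genes called lower was 5 with DESeq2 and 0 in every other alternative, and the median log2 fold change was -0.14 to -0.09 with 1 library left out and -0.062 without the 2 libraries that stood apart and the air library lacking Xist. At 72 h against air the number called lower was 4 with upper quartile scaling, 5 with no low-count filter, 13 with DESeq2, 4 without the 3 libraries and 0 to 9 with 1 library left out; the median was -0.17 with upper quartile scaling, -0.18 with a filter of 1 CPM in 3 libraries, -0.15 without the 2 libraries and -0.23 to -0.17 with 1 left out. At 72 h against 24 h the number lower was 6 with DESeq2, 2 with upper quartile scaling, with no filter and without the 3 libraries, 1 without the 2 libraries and 1 to 4 with 1 left out. The number higher was 2 with upper quartile scaling or the 1 CPM filter, 1 with DESeq2, with voom, without the 10 most abundant, rRNA and mitochondrially encoded genes or without the 2 libraries, and 0 to 1 with 1 left out; the median was -0.037 with upper quartile scaling and -0.133 to -0.042 with 1 left out. The joint test called 15 with DESeq2, 2 without the 3 libraries and 0 to 9 with 1 left out. The cause was not tested.

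The same replicate numbers stand in each group. Correlations between the deviations of same-numbered libraries ran from -0.75 to 0.63, and 3 of 9 were over 0.1. The 2 libraries that stood apart, which bear different numbers, correlated at 0.81 with each other. With those libraries in the ozone groups, the check cannot settle whether the numbers pair the mice. With the replicate block 0 genes were called lower at 72 h against air (0.0255% of all tested genes), with the median at -0.22 as without it; 2 were lower at 72 h against 24 h (7.14%), and the joint test called 0 (0.675%).

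With 3 mice per group and differences of mostly under 0.5 on the log2 scale, the calls lie near the threshold, and nothing beyond the labels says which cells in each library carried the RNA. Whether opposite strands were counted apart was not given in the sources used here, which bears on Acadvl, Acaa1a and Acot8 among others. Myd88 overlaps 6.57% of the exon bases of Acaa1a and stood at 71.0% of its level. Snx21 overlaps 12.3% of those of Acot8 and stood at 56.4% of its level. At 72 h against air Myd88 was at -0.23 and Snx21 at 0.24, and neither was called. Near copies limit Acaa1a, Acaa1b, Acot2 and Scp2.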
